A study of Mus musculus with 2 samples.

Results

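The genes that make or destroy retinoic acid (RA), or take up its precursor retinol, were followed in mouse embryonic stem (ES) cells. Their response to RA was read with and without Utx, a demethylase of the repressive histone mark H3K27me3. All 9 listed retinoid metabolism and uptake genes were found by symbol among the 22485 named genes of the arrays, each with 1 feature: Stra6, Rdh10, Dhrs3, Aldh1a1, Aldh1a2, Aldh1a3, Cyp26a1, Cyp26b1 and Cyp26c1. The control line was V6.5, labelled wild type, and the other line was labelled Utx KO. Both were kept on gelatin with leukaemia inhibitory factor (LIF), and differentiation was started by taking LIF away and adding 100 nM RA for 48 h, so the effects of LIF loss and of RA cannot be told apart. On each of the 2 Agilent 2-colour arrays, RNA of untreated cells (Cy3) was set against RNA of RA-treated cells (Cy5) of the same line, with 1 array per line and no dye swap used here. The sources used here do not say how the knockout was made or whether it is 1 clone.

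Cells take up vitamin A, retinol, from its carrier protein in blood through the membrane receptor STRA6. Retinol is oxidised to retinal, chiefly by RDH10 in the embryo, and DHRS3 turns retinal back into retinol. Enzymes of the ALDH1A family oxidise retinal irreversibly to RA, the ligand of the RAR nuclear receptors, and the cytochrome P450 enzymes of the CYP26 family hydroxylate RA for removal. In these cultures RA itself was supplied in the medium. Several of these genes are known RA targets, so the pathway is known to feed back on its own product.

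The values are log2 ratios of RA-treated over untreated RNA, a likely direction read from the dyes in the labels, and every fold below rests on that reading and on a log base of 2. With 1 array per line, neither a line's own value nor the gap between lines can be set against replicates. The shared response was tested with limma over the 2 arrays, which takes the lines as 2 samples of 1 response. Values after ± are its moderated standard errors (n = 2 arrays), and p-values are adjusted by Benjamini-Hochberg over all genes. Each array holds a different line, so no replicate cultures of a line were compared. For each gene, limma's error joins the gap between its 2 ratios with a variance drawn from all genes. That gap includes the difference between the lines, so the p-values do not measure variation between cultures of 1 line. Ratios carry no expression level, so the ES cell identity of the samples could not be checked against the presence of marker transcripts.

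Of the 9 genes, 5 rose, 1 fell and 3 did not pass an adjusted p under 0.05. Among all genes 8.93% rose and 7.93% fell in the same test. The genes that rose were Cyp26a1, Stra6, Dhrs3, Cyp26b1 and Aldh1a2, and Aldh1a3 was the gene that fell. The 3 genes that did not pass were Rdh10, Aldh1a1 and Cyp26c1, whose ratios lay between -0.11 and 0.57 on the 2 arrays. The median log2 ratio of the 9 genes was 0.37 in V6.5 cells and 0.70 in knockout cells, against -0.02 for all genes on both arrays. Past a 2-fold bound, 4 of the 9 were higher in V6.5 cells and 4 in knockout cells, against 2.52% and 2.92% of all genes, and 1 was lower on each array, against 1.59% and 1.65%.

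**Figure D1:**
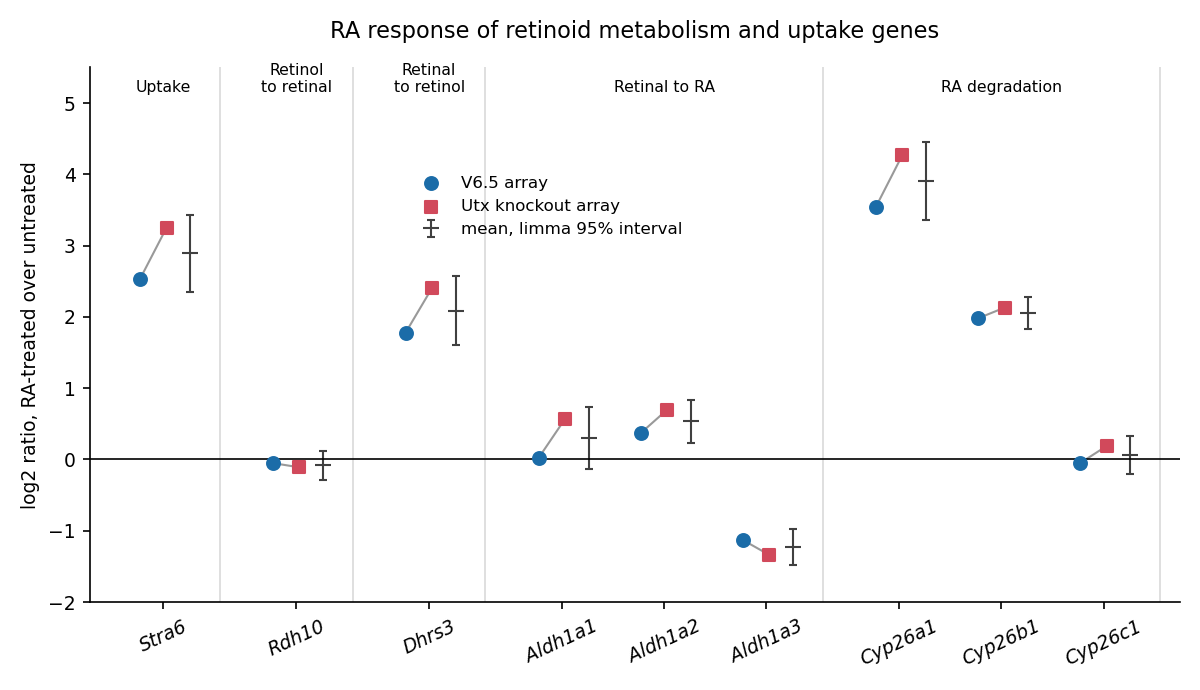
Log2 ratio, RA-treated over untreated RNA (y axis), of the 9 genes, ordered by their step in retinoid metabolism, with 1 point for V6.5 (circle) and another for the Utx knockout (square), joined by a line, and the mean with limma's 95% interval beside them. Cyp26a1, Stra6, Dhrs3 and Cyp26b1 lie at 1.78 or higher on both arrays, Aldh1a3 lies at -1.13 and -1.34, and the remaining genes stay between -0.11 and 0.70.

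Cyp26a1 headed the group and is the member whose promoter window held a match to the letters of an RA response element. RARs bind, with RXR partners, to direct repeats of a hexamer, and 4 hexamers were searched on both strands. They were AGGTCA along with its variants AGTTCA, and further GGGTCA, as well as GGTTCA, any pair of them as a repeat with 1, 2 or 5 bases between. The search used RefSeq windows (GRCm38.p6) from 250 bases before to 50 after each start site, which the reference table holds for 7 of the 9 genes in 13 windows; Rdh10 and Aldh1a3 have no entry there. The Cyp26a1 element is a repeat with 5 bases between, at chr19:37697776-37697792 on the minus strand, opposite to the gene, and it covers positions -32 to -16 from the start site. The stretch printed is chr19:37697770-37697798 on that strand. It is shown with the only stretches of other members that held a single hexamer, at chr9:58134084-58134101 (plus strand, Stra6) and chr19:20601913-20601930 (minus strand, Aldh1a1). Capitals mark the hexamers.
Cyp26a1: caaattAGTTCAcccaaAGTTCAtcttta
Stra6: aggcgaAGTTCAtcttct
Aldh1a1: cactaaGGGTCAtttgca

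The 5-base repeat occurred in 0.0974% of all 32851 windows, or in 0.115% of the genes with a window. A single hexamer was found in 43.7% of windows, so the Stra6 and Aldh1a1 matches are common ones. Repeats with 1 base between were found in 0.222% and with 2 bases in 0.268% of windows, and in 0 windows of these genes. The letters of this search were therefore not seen as a repeat in the windows of Stra6, Dhrs3, Cyp26b1, Aldh1a1, Aldh1a2 or Cyp26c1, which says nothing of elements farther away. Of the 31 genes with the 5-base repeat, 12 were measured. Cyp26a1 and Rarb, an RA receptor and known RA target, were the 2 that rose in limma, and 0 fell. Among all genes 8.93% rose and 7.93% fell. At an unadjusted p under 0.05 in limma, 4 of the 12 were higher and 2 were lower. The 10 that did not pass had mean log2 ratios between -0.75 and 0.54. The matches are a description of sequence and were not tested as binding sites.

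Uptake came first in order of the pathway. Stra6, the receptor for the retinol carrier RBP4, had log2 ratios of 2.53 in V6.5 cells and 3.25 in knockout cells, which is 5.78-fold and 9.51-fold higher after RA. It ranked 81 from the top of all genes in V6.5 cells and 51 in knockout cells. The mean rise was 2.89 ± 0.19 (95% interval 2.35 to 3.43, adjusted p of 0.00998 in limma). Both arrays thus held Stra6 among their highest ratios.

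Next in order are the genes that turn retinol and retinal into each other. Rdh10, the retinol dehydrogenase that makes retinal, had ratios of -0.05 and -0.11, 2 values close to 0 and to each other, and did not pass. Its mean of -0.08 ± 0.07 had a 95% interval of -0.29 to 0.12, and the adjusted p in limma was 0.491. Dhrs3 encodes the reductase of the opposite direction, and it rose. Its ratios were 1.78 in V6.5 cells and 2.41 in knockout cells, or 3.44-fold and 5.30-fold, with a mean of 2.09 ± 0.17 (95% interval 1.61 to 2.57, adjusted p of 0.012 in limma). The intervals of Dhrs3 and Rdh10 do not overlap.

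Of the 3 genes of RA synthesis, 1 rose, 1 fell and 1 did not pass. Aldh1a2, the main RA-making enzyme of the early embryo, rose a little, with ratios of 0.37 and 0.70, or 1.29-fold and 1.63-fold. Its mean was 0.54 ± 0.11 with an adjusted p of 0.0494 in limma, close to the threshold, and against a bound of 1.5-fold it did not pass. Aldh1a1, an enzyme known from the eye and liver, had 0.02 in V6.5 cells and 0.57 in knockout cells, which was 1.02-fold and 1.49-fold. Its mean of 0.30 ± 0.16 did not pass (adjusted p of 0.269 in limma).

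Aldh1a3, an RA-making enzyme of the eye and nose, fell. Its ratios were -1.13 in V6.5 cells and -1.34 in knockout cells, so its RNA was 2.18-fold and 2.53-fold lower after RA. The mean was -1.23 ± 0.09 (95% interval -1.48 to -0.98, adjusted p of 0.0108 in limma), and a bound of 1.5-fold ended this call, with an adjusted p of 0.0616 in limma's treat. The gene ranked 260 from the bottom of all genes in V6.5 cells and 165 in knockout cells. In the same test, 8 of 12 measured fibroblast markers fell and 0 rose (8 and 0 also at an unadjusted p under 0.05), with mean log2 ratios from -2.29 to 0.12 and medians of -1.09 in V6.5 cells and -1.19 in knockout cells; their part in the fall of Aldh1a3 was not tested. In bulk RNA, fewer cells of a type and less RNA per cell cannot be told apart.

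Of the 3 RA-degrading genes, 2 rose. Cyp26a1 had log2 ratios of 3.54 and 4.27, or 11.7-fold in V6.5 cells and 19.3-fold in knockout cells. It ranked 36 from the top of all genes in V6.5 cells and 20 in knockout cells, and its mean was 3.91 ± 0.20 (95% interval 3.36 to 4.45, adjusted p of 0.00758 in limma). Cyp26b1, known from the hindbrain, limb and gonad, had 1.98 and 2.13, or 3.95-fold and 4.36-fold. Its 2 ratios were closer together than those of Cyp26a1, and its mean was 2.05 ± 0.08 (95% interval 1.83 to 2.28, adjusted p of 0.00634 in limma). It ranked 131 from the top on both arrays.

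The remaining family member, Cyp26c1, stayed near 0. The ratios were -0.05 in V6.5 cells and 0.19 in knockout cells, and the mean of 0.07 ± 0.09 did not pass (95% interval -0.20 to 0.33, adjusted p of 0.666 in limma). In RefSeq GRCm38.p6, Cyp26c1 and Cyp26a1 are neighbours among protein-coding genes on chromosome 19. The gene at the top of the group and a gene near 0 thus lie side by side, and their intervals do not overlap. On the other side of Cyp26a1 lies Myof, a membrane repair gene, with ratios of -0.21 and -0.23 (adjusted p of 0.126 in limma). Spot intensities were not used here, so whether Cyp26c1 was above background in either condition is unknown.

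Neighbours of the other called members were looked up after the values were seen. The 6 called members have 12 measured protein-coding neighbours, of which 2 rose, 3 fell and 7 did not pass. Among all genes 8.93% rose and 7.93% fell. The 12 include Cyp26c1, itself a member. Dhrs3, which rose, lies between Vps13d, with -1.26 and -0.88, and Tnfrsf1b, with -1.05 and -0.87, and both of these fell. Next to Cyp26b1, Exoc6b fell (-0.53 and -0.40). Islr beside Stra6 (0.97 and 1.15) and Polr2m beside Aldh1a2 (0.54 and 0.69) were the neighbours that rose.

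The order of the genes was nearly alike on both arrays. By mean it ran Cyp26a1, Stra6, Dhrs3, Cyp26b1, Aldh1a2, Aldh1a1, Cyp26c1, Rdh10 and Aldh1a3. Dhrs3 and Cyp26b1 changed places between V6.5 (1.78 and 1.98) and the knockout (2.41 and 2.13), as did Cyp26c1 and Rdh10. The 95% intervals of Cyp26a1 and Stra6 overlap, as do those of Stra6 and Dhrs3 and of Dhrs3 and Cyp26b1, while that of Cyp26b1 lies wholly above that of Aldh1a2. From Aldh1a2 down to Rdh10 each interval overlaps the next, and that of Aldh1a3 lies below that of Rdh10. These intervals hold the difference between the lines and ignore that the genes share the 2 arrays, so overlap is no test between genes. On both arrays Cyp26a1 ranked above Stra6, and Stra6 above Dhrs3 and Cyp26b1.

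**Figure D2:**
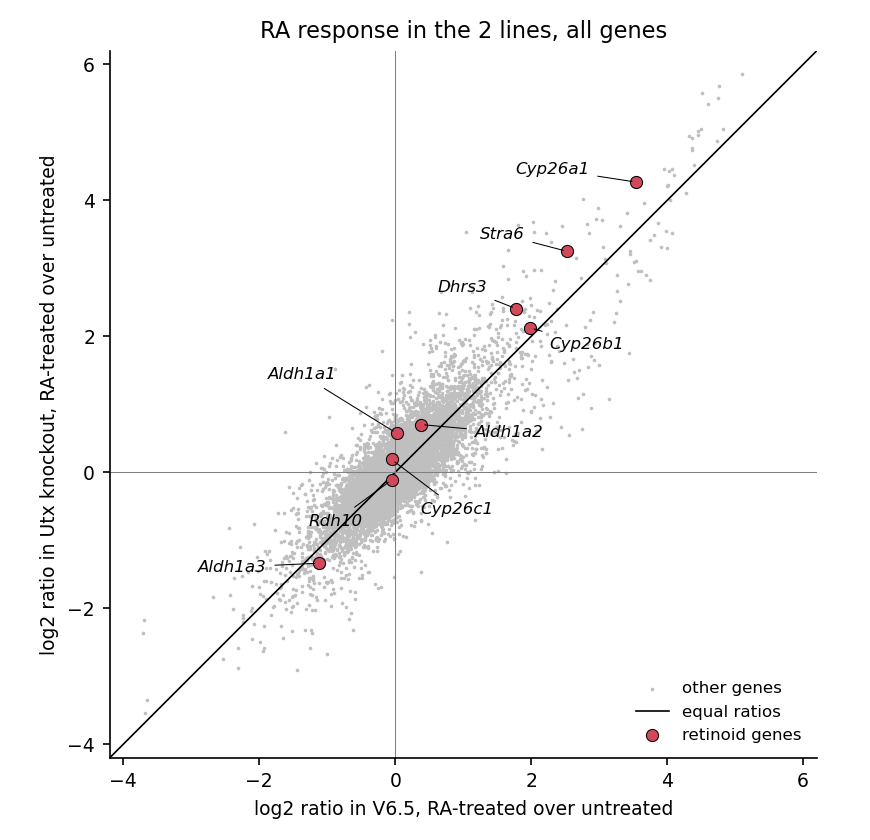
Log2 ratio, RA-treated over untreated RNA, of V6.5 (x axis) against the Utx knockout (y axis) for all 22485 named genes (grey points), with the 9 retinoid genes as filled red points and a line at equal ratios. Cyp26a1, Stra6 and Dhrs3 lie above the line, and Cyp26b1 lies close to it.

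The Utx comparison asks whether the response of these genes differed without the demethylase. No member had a knockout ratio 2-fold above or below the V6.5 ratio (0 of 9, against 0.583% above and 0.467% below among all genes). A difference of at least 1.5-fold upward was seen for 3 of the 9, Cyp26a1, Stra6 and Dhrs3, against 2.50% of all genes, and downward for 0, against 1.88%. The knockout ratio of Cyp26a1 was higher than that of V6.5 by 0.73 (log2), and 2.58% of all genes had a difference of that size in either direction. The difference was 0.72 for Stra6 and 0.63 for Dhrs3, sizes reached by 2.64% and 3.70% of all genes. None of these differences could be tested, with 1 array per line.

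The other differences were smaller. Aldh1a1 differed by 0.55, a size that 5.00% of all genes reached, and Aldh1a2 by 0.33 (14.5%). Cyp26c1 differed by 0.24 (24.3%), Cyp26b1 by 0.14 (45.8%), Aldh1a3 by -0.21 (29.7%) and Rdh10 by -0.06 (73.9%). In all, 7 of 9 members had the higher ratio in knockout cells, against 50.7% of all genes, and so did the 5 that rose. These counts follow the likely direction of the ratios. Of the 570 genes with a mean log2 ratio of at least 1, 61.6% were higher there and 23.9% by at least 1.5-fold. Among the 4 members with such a mean, 4 were higher in knockout cells and 3 by at least 1.5-fold. At the opposite end, of the 316 genes with a mean of -1 or lower, 56.6% had the lower ratio in knockout cells and 14.6% by at least 1.5-fold; Aldh1a3, the member among them, was lower there by less than 1.5-fold.

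**Figure D3:**
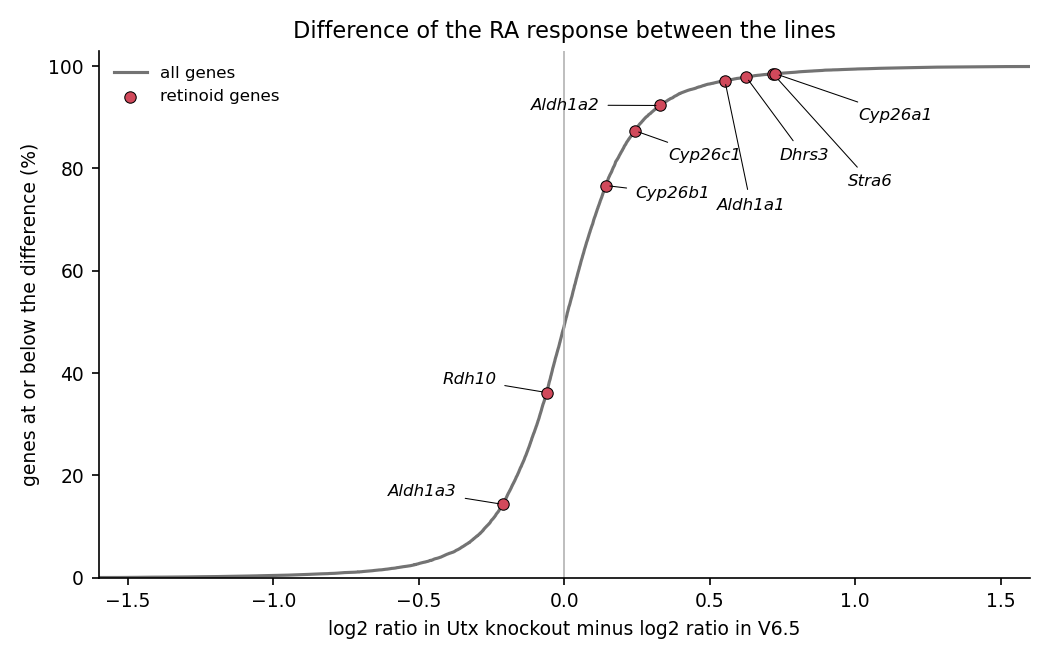
Cumulative share of all 22485 named genes (y axis, percent) by the difference of the log2 ratio, Utx knockout minus V6.5 (x axis, shown from -1.6 to 1.6), with the 9 retinoid genes as points on the curve. Cyp26a1 and Stra6 lie nearly on top of each other at 0.73 and 0.72, and Rdh10 and Aldh1a3 lie below 0.

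The rest of the retinoid pathway was read in 6 further lists. Each count of these lists stands against 8.93% of all genes that rose and 7.93% that fell. Of 17 measured other retinol and retinal oxidoreductases, 0 rose and 3 fell in limma, and their medians were -0.09 in V6.5 cells and -0.03 in knockout cells. Akr1b8, an aldo-keto reductase that accepts retinal, had -1.19 and -1.03. Rdh11, a retinal reductase, had -0.96 and -1.0, and Adh5, an alcohol dehydrogenase by name, had -0.42 and -0.41. With Akr1b8, these were the 3 that fell. Dhrs4 (-0.33 and -0.79), Adh4 (0.19 and 0.23) and Adh7 (0.12 and 0.25) did not pass. At an unadjusted p under 0.05, 1 of the 17 was higher and 4 were lower.

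Among relatives of the RA-making enzymes, 6 of 16 other aldehyde dehydrogenases fell and 1 rose. Their medians were -0.14 and -0.29. Those that fell were Aldh1b1, a mitochondrial enzyme, with -0.93 and -1.25, Aldh1l1 with -0.67 and -0.90, Aldh1l2 with -0.46 and -0.45, Aldh3a1 with -0.48 and -0.49, Aldh4a1 with -0.61 and -0.42 and Aldh6a1 with -0.60 and -0.38. Aldh3a2, which oxidises fatty aldehydes, rose, with 0.46 and 0.61. Aldh1a7 had 0.66 and 1.92 and did not pass (adjusted p of 0.0714 in limma). The difference between the lines, 1.26, was of a size that 0.431% of all genes reached. Aldh1a7 is a close copy and chromosomal neighbour of Aldh1a1. Probes of such copies can share signal, so the values of Aldh1a1 and Aldh1a7 are uncertain as those of single genes. Aldh2 (-0.07 and -0.62) and Aldh16a1 (0.47 and 0.28) did not pass.

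Storage and import genes were read next. Of 9 ester and visual cycle genes 1 rose, the lipoprotein lipase Lpl with 0.82 and 1.24, and 1 fell, the retinol saturase Retsat with -0.71 and -0.57. Lrat, which esterifies retinol for storage, had 0.22 and 0.68 and did not pass, nor did Dgat1 (-0.02 and -0.08) or the lipase Lipe (0.02 and -0.44). Of 6 carotenoid and other uptake genes 0 passed in limma, among them Stra6l, the related RBP4 receptor, with -0.17 and -0.32, Scarb1 (-0.16 and -0.28) and Cd36 (0.09 and 0.28). At an unadjusted p under 0.05, 0 of these 6 rose and 1 fell.

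Of 8 measured carriers 2 rose, the retinol carrier Rbp4, the ligand of STRA6, with 0.74 and 1.40, and Rbp7 with 0.62 and 0.63. The RA carriers Crabp1 (-0.04 and 0.93) and Crabp2 (0.67 and 2.65) and the fatty acid and RA carrier Fabp5 (-0.01 and 0.35) did not pass. The lines differed by 0.97 for Crabp1 and 1.98 for Crabp2, sizes that 1.15% and 0.0445% of all genes reached. Such a difference enters the residual of the shared fit, so not passing does not mean no response. These differences were not tested. Of 6 receptors 2 rose, Rarb with 2.38 and 2.40 and Rxrg with 0.86 and 0.66, while Rara (-0.20 and -0.31), Rarg (0.50 and 0.10) and Rxrb (0.24 and 0.03) did not pass. Against 1.5-fold with limma's treat, 4 of the 9 metabolism and uptake genes rose and 0 fell (0.872% and 0.431% of all genes did). These 4 were Cyp26a1, Stra6, Dhrs3 and Cyp26b1, and 1 receptor, Rarb, rose as well.

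**Figure D4:**
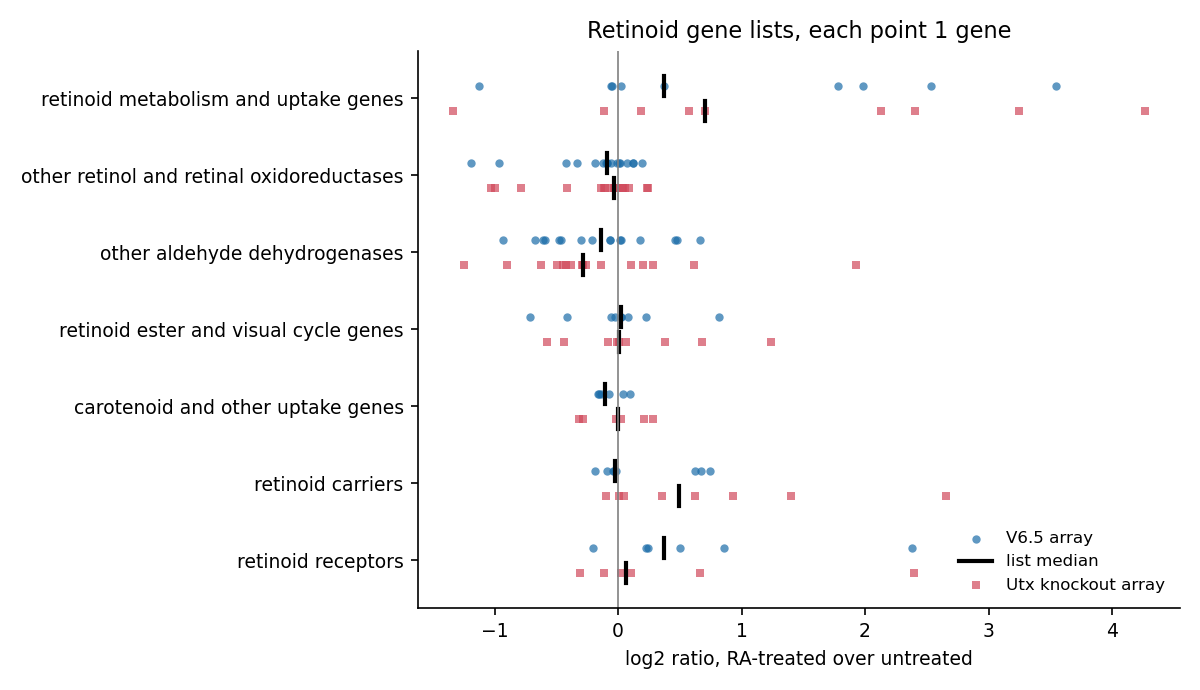
Log2 ratio, RA-treated over untreated RNA (x axis), of each measured gene in 7 lists of the retinoid pathway (rows), in V6.5 (circles) and the Utx knockout (squares), with each list's median as a black bar. The highest points are those of the metabolism and uptake genes (Cyp26a1, 4.27), followed across the other lists by the carriers (Crabp2, 2.65) and the receptors (Rarb, 2.40), all in knockout cells.

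Markers of other states give the setting of these values, beside 8.93% of all genes that rose and 7.93% that fell. Of 12 ES cell markers 4 fell and 0 rose in limma (8 and 1 at an unadjusted p under 0.05). Of 12 primitive and visceral endoderm markers 1 fell and 0 rose (1 and 4 unadjusted), and of 9 measured neural progenitor markers 2 rose and 2 fell. The part of such cells in the rise of Stra6, Dhrs3 or the Cyp26 genes was not tested.

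Other genes had ratios like those of the extremes. By distance over the 2 log2 ratios, the named genes nearest to Cyp26a1 were Hoxa3 (3.67 and 3.96, distance 0.33), Hoxb4 (3.42 and 3.81, distance 0.47), Tmem92 (4.06 and 4.46, distance 0.56), Pramel16 (4.09 and 4.38, distance 0.56) and Wt1 (2.98 and 3.89, distance 0.68). Nearest to Aldh1a3 were Fabp3 (-1.12 and -1.33, distance 0.01), Mpig6b (-1.16 and -1.34, distance 0.03), Cacnb1 (-1.09 and -1.35, distance 0.04), Mymx (-1.06 and -1.32, distance 0.07) and Capn5 (-1.11 and -1.27, distance 0.07). Likeness over 2 arrays is a description of these 2 values alone.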

How the data were processed

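The deposited table gives 1 value per feature for 44397 features on 2 arrays, taken as log2 ratios that the authors centred on the mean of each array. The submitters' processing notes name limma, with no version or step; how background and dyes were corrected is not given in the sources used here. Only ratios were analysed, so the signal over background of a feature is unknown and precision is limited by having 2 arrays. Without a dye swap, any dye bias of a feature enters both arrays alike.

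Features were named through the platform annotation (33026 with 1 symbol, 11371 with none) and averaged per gene. An intercept over the 2 arrays was fitted with lmFit and eBayes of limma 3.58.1 in R 4.3.3 (two-sided, 1 residual and 2.98 prior degrees of freedom). This step was also run on simulated data, where it missed part of the changed genes. The simulation held fewer changed genes than were called here, so its rate of misses does not carry over to these data. With 2 arrays, a gene that did not pass may still have changed. Python 3.11.15 served for the rest. The alternatives were feature medians, single features, robust eBayes, treat, median centring, quantile normalization and a 1.5-fold bound.

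The members, lists and tests were chosen with earlier results of these data known. All members were named. Of each further retinoid list, the genes that passed and up to 3 others with the largest absolute mean were named. The marker lists were summarised without gene names. For likeness the 5 nearest named genes were given, without placeholder names.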

Additional observations from a re-analysis of the deposited data

Results flagged for a closer look

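Cyp26c1 had a log2 ratio below 0 in V6.5 (-0.05) and above 0 in the knockout (0.19), a difference of 0.24. The retinoid carriers Crabp1 (-0.04 and 0.93, a difference of 0.97) and Fabp5 (-0.01 and 0.35, a difference of 0.37) likewise had opposite signs on the 2 arrays. For the lipase gene Lipe the signs ran the other way, with 0.02 in V6.5 and -0.44 in the knockout, a difference of -0.46. With 1 array per line these differences were not tested, and the V6.5 values of these 4 genes lie between -0.05 and 0.02.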

How the results depend on the processing

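With feature medians, single features, robust eBayes, median centring and quantile normalization, the counts of members that rose (5) and fell (1) and the calls of all 9 members were the same. For Aldh1a2 this held narrowly. Its adjusted p in limma was 0.0435 with quantile normalization and, with robust eBayes, so close under the threshold that it rounds to 0.05. Each member has 1 feature, so feature medians and single features could not change its ratio, nor could robust eBayes. Only the p-values could move in these settings. Against 1.5-fold with treat, 0 members fell and 4 rose: Aldh1a3 had an adjusted p of 0.0616 and Aldh1a2 of 1.00 in limma. Over all genes, treat called 196 up and 97 down in place of 2009 and 1784, and single features 3694 and 3608 of 44397. A bound of 1.5-fold gave 3 members with a higher ratio in the knockout, in place of 0 at 2-fold. The adjusted p of Aldh1a2 ranged from 0.0435 to 1.00 over the 6 alternatives and that of Cyp26a1 from 0.00483 to 0.0153. Leaving out either array leaves a single array with no test. Each ratio already pairs treated with untreated RNA of the same line. No further pairing was possible because the labels carry no replicate numbers and each line has 1 array.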
